A study of Oryctolagus cuniculus with 6 samples.

Results

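Counts of 9 genes for neurotrophic factors and their receptors were taken by gene symbol from RNA-seq libraries of injured rabbit facial nerve, out of 17396 genes listed. The genes were CNTF, CLCF1, BDNF, NTF3, GDNF and ARTN, which encode factors, and NGFR, NTRK2 and GFRA1, which encode receptors. All 9 were found and all 9 passed the filter on low counts, as did 14003 genes in total. The libraries came from wild type male Japanese white rabbits of 3 to 4 months, with 3 libraries of facial nerve injury (FNI) and 3 of injury with a seed (FNI+I-125). Both groups had the main trunk cut, and in the FNI+I-125 group a radioactive iodine seed of 0.8 mCi had been placed beside it. Nerves were taken on day 14. The injury was a complete transection on 1 side without an uninjured nerve among these libraries, so each value describes an injured nerve with or without a seed. Sham nerves were not analysed here.

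Neurotrophic factors are proteins that keep neurons alive and guide the growth of their axons. The neurotrophins BDNF and NTF3 bind Trk receptor kinases such as NTRK2 (TrkB) and share the low-affinity receptor NGFR. GDNF and ARTN bind GPI-anchored co-receptors, of which GFRA1 is the main one for GDNF, and signal through the kinase RET. CNTF and CLCF1 belong to the interleukin-6 type cytokines and signal through CNTFR, LIFR and IL6ST. In peripheral nerve, CNTF is known as a product of mature myelinating Schwann cells that is lost after axotomy, whereas BDNF, GDNF, ARTN, NGFR and GFRA1 are known to be induced in Schwann cells that have lost their axon.

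Total counts ran from 16031151 to 16798012 per library, so that 1 count corresponded to 0.0586 to 0.0654 CPM (counts scaled to a common library total) after TMM normalization, a scaling that makes libraries of different composition comparable. The libraries differed in more than the seed. The summed level of 8 markers of myelinating Schwann cells ran from 2962 to 39259 CPM in FNI nerves, with the top in replicate 3, and from 319 to 3283 CPM in nerves with a seed. Muscle fibre markers, of which 7 were listed, summed to at most 72.3 CPM in the FNI libraries and reached 4878 CPM in the FNI+I-125 group, where replicate 3 held 10.4 CPM. Salivary gland markers reached 49683 CPM in FNI replicate 2, of which DNASE1 alone gave 48086 CPM. They summed to 26.8 CPM in FNI replicate 3 and to at most 641 CPM in a nerve with a seed, so the groups overlapped. Adipocyte markers summed to 1291 to 2756 CPM without and 886 to 1082 CPM with a seed, and fibroblast markers to 50886 to 102839 CPM and 74325 to 142518 CPM. COL1A1 and COL3A1 made up most of the fibroblast sum. Of the 7 fibroblast markers, 4 had higher and 3 had lower counts with a seed. DCN and ITGBL1 were lower without overlap between the groups, as were 12.3% of all genes. The tissue label was met by Schwann cell genes, since each of 6 general Schwann cell markers had at least 380 counts in every library, while the cell bodies of neurons were hardly represented (0.458 to 1.06 CPM over 5 markers). In such bulk tissue, fewer cells of a type and less RNA per cell cannot be told apart.

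Nerves with a seed held less of 5 of the 9 genes and more of the other 4, but less of all 9 without FNI+I-125 replicate 3. Among all genes tested 48.9% lay lower and 51.1% higher. With edgeR's quasi-likelihood test and Benjamini-Hochberg adjustment over all genes, 0 of the 9 passed an adjusted p of 0.05 with a |log2 fold change| of 1.5 or more, as did 0.0% of all genes. At an unadjusted p under 0.05, 2 of the 9 were lower (NTRK2 and CNTF) and 0 were higher, where 7.73% of all genes were lower and 9.23% were higher. With a |log2 fold change| of 1.5 or more as well, CNTF was 1 of 9, beside 2.19% of all genes lower and 2.77% higher. NTRK2 and CNTF also had lower levels without overlap between the groups, which held for 12.3% of all genes, and 0 of the 9 had higher levels without overlap, which held for 14.8%. The median |log2 fold change| was 0.62 for the 9 genes and 0.31 for all genes tested. With DESeq2, CNTF passed both criteria, as did 1.26% of genes with lower and 2.08% with higher counts.

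**Figure D1:**
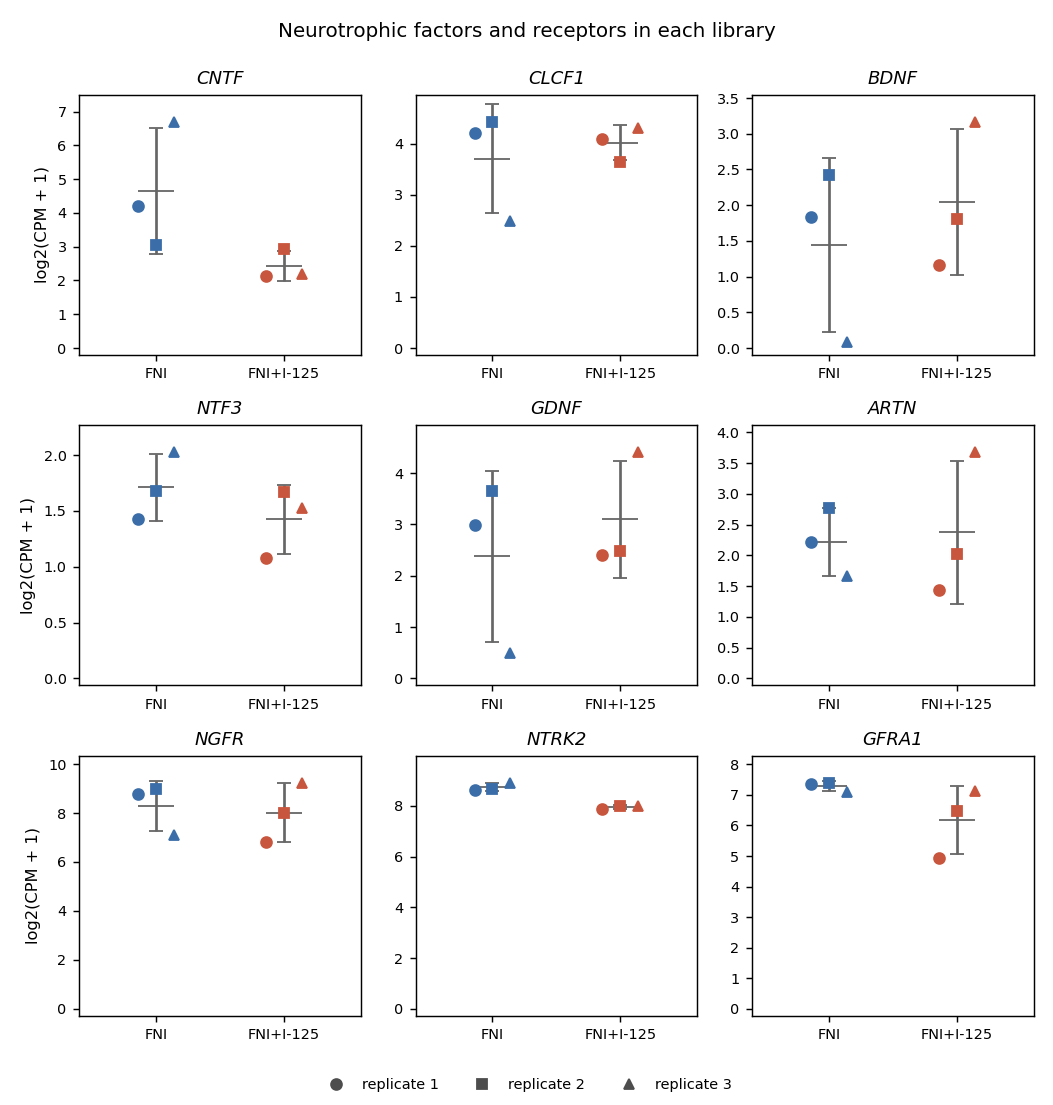
Level of each of the 9 genes in each library, as log2(CPM + 1) on the vertical axis, for the FNI group (blue) and the FNI+I-125 group (red). Marker shapes give the replicate, horizontal bars the group mean and whiskers the SD (n = 3). NTRK2 and CNTF are lower in every FNI+I-125 library, and the other 7 genes overlap between the groups.

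CNTF, the survival factor stored by mature Schwann cells, was lower in the nerves with a seed, by an amount that rested largely on 1 FNI library. It had 296, 116 and 1736 counts in FNI replicates 1, 2 and 3 and 52, 109 and 61 counts in the FNI+I-125 replicates, which is 17.3, 7.31 and 103 CPM against 3.40, 6.63 and 3.58 CPM. The FNI group spread over 14.0-fold from its lowest to its highest library, and the FNI+I-125 group over 1.95-fold. The lowest FNI library and the highest FNI+I-125 library lay close together, and the 116 counts of the former have a 95% exact Poisson interval of 95.9 to 139 counts, for counting error only, that holds the 109 counts of the latter. CNTF had a log2 fold change of -3.22 (standard error 1.04, unadjusted p = 0.0208, adjusted p = 0.280 from edgeR). By exact permutation of the libraries between the groups, the two-sided p for log2(CPM + 1) was 0.1, the smallest p that 3 libraries against 3 allow. Without FNI replicate 3, the log2 fold change was -1.46, and the adjusted p of the edgeR and limma fits ran from 0.258 to 0.505 over all settings. DESeq2 gave an adjusted p of 0.0117 with all libraries and of 0.133 without FNI replicate 3, 0.103 without FNI+I-125 replicate 1 and 0.0592 without FNI+I-125 replicate 3. The gene ZFP91 overlaps CNTF in the RefSeq table of rabbit assembly mOryCun1.1, and its own levels were 97.0 to 131 CPM in the FNI group and 96.9 to 115 CPM in the FNI+I-125 group. Neither the counting program nor its strand setting is given in the sources used here. The strands of ZFP91 and CNTF were not compared, so reads from the shared stretch could be assigned to either gene. BDNF, NTF3 and NTRK2 each overlap a long non-coding RNA gene in the same table. Unlike ZFP91, these non-coding genes are not among the genes counted, and how reads from those stretches were assigned is not known.

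CLCF1, a secreted cytokine that uses the CNTF receptor, did not follow CNTF. It stood at 17.4, 20.5 and 4.61 CPM in FNI replicates 1, 2 and 3 and at 16.1, 11.5 and 18.8 CPM in the FNI+I-125 replicates. FNI replicate 3, where CNTF was highest, held the lowest CLCF1 level of all 6 libraries. The log2 fold change of CLCF1 was 0.13 (standard error 0.54), and without FNI replicate 3 it was -0.31. CLCF1 overlaps RAD9A in the RefSeq table, so the same limit applies to its counts.

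The receptor subunits that CNTF shares with its relatives differed in how they varied. CNTFR, the ligand-binding subunit for CNTF, stood at 38.4, 44.2 and 164 CPM in FNI replicates 1, 2 and 3 and at 26.5, 22.3 and 26.1 CPM in the FNI+I-125 replicates. LIFR, a signalling subunit, stood at 46.9, 77.4 and 142 CPM against 30.7, 27.3 and 35.6 CPM. Both genes were lower in every library with a seed, and both had their highest level in FNI replicate 3, as CNTF did. The log2 fold change was -1.72 (standard error 0.59) for CNTFR and -1.51 (standard error 0.41) for LIFR, with an unadjusted p of 0.0275 and 0.00983 and an adjusted p of 0.280 for each from edgeR. Without FNI replicate 3 they were -0.74 and -1.01. IL6ST, the subunit common to the whole cytokine family, overlapped between the groups, with 280 to 462 CPM in the FNI group and 329 to 443 CPM in the FNI+I-125 group. LIF, an injury cytokine that uses LIFR and IL6ST, stood at 15.7, 20.9 and 4.55 CPM against 46.0, 15.8 and 31.0 CPM. OSM, a cytokine of white blood cells, had at most 0.756 CPM in an FNI library and 92.2, 4.02 and 7.51 CPM in the FNI+I-125 replicates, with the top in replicate 1. OSM had 8, 12 and 0 counts in the FNI replicates, so it passed the filter on low counts only through the FNI+I-125 libraries, and its difference is a description. Its fitted log2 fold change of 6.39 (standard error 1.72) was 3.80 without FNI+I-125 replicate 1, and limma-voom gave an adjusted p of 0.466. Neutrophil markers, all 7 of which were counted, summed to 9.34 to 146 CPM in the FNI group. In the FNI+I-125 group they summed to 658 to 1981 CPM, with the top also in replicate 1. MMP9 alone gave 710 of the 759 CPM in FNI+I-125 replicate 2 and 503 of the 658 CPM in replicate 3. All 7 had higher counts with a seed, but only 2 were higher without overlap between the groups, as were 14.8% of all genes. The part of these markers in the OSM level was not tested.

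**Figure D2:**
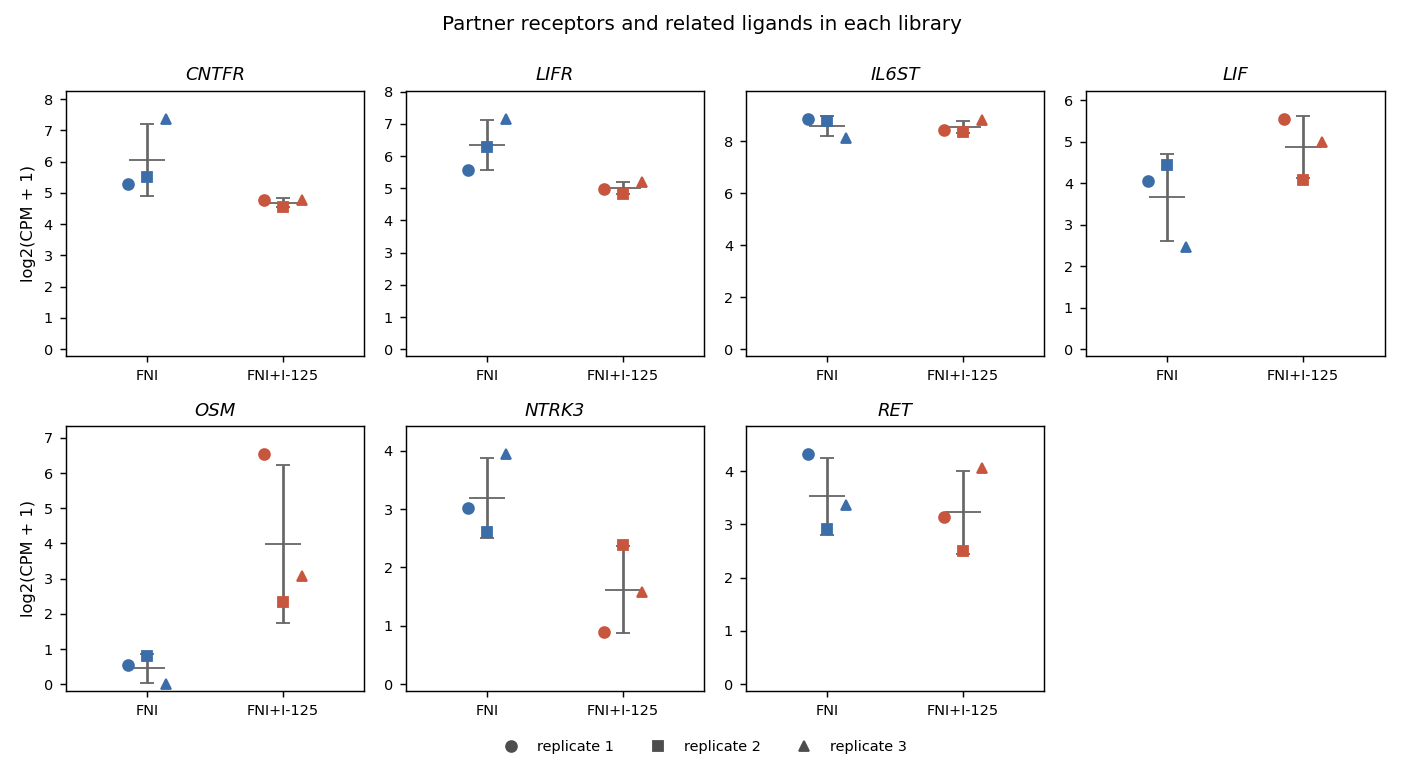
Level of receptors and ligands that work with the 9 genes or belong to their families, as log2(CPM + 1) on the vertical axis, in the FNI group (blue) and the FNI+I-125 group (red). Marker shapes give the replicate, bars the mean and whiskers the SD (n = 3). CNTFR, LIFR and NTRK3 lie lower and OSM lies higher in every FNI+I-125 library, while IL6ST, LIF and RET overlap.

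NTRK2 was lower in every nerve with a seed, and of the 9 genes it varied least within the groups. NTRK2 encodes TrkB, the receptor of BDNF, which in nerve is known mainly as a truncated form on Schwann cells and other non-neuronal cells. It had 6734, 6457 and 8132 counts in FNI replicates 1, 2 and 3 and 3566, 4133 and 4369 counts in the FNI+I-125 replicates. This was 394, 407 and 481 CPM against 233, 252 and 256 CPM. Each group spread over little, 1.22-fold without and 1.10-fold with a seed, where the median gene spread over 1.45-fold and 1.41-fold. Mean NTRK2 was 427 ± 46.6 CPM (SD, n = 3) without a seed against 247 ± 12.3 CPM (SD, n = 3) with one, a 1.73-fold lower level. The log2 fold change of -0.79 (standard error 0.14, unadjusted p = 0.00132) had an adjusted p of 0.280 from edgeR and lay under the fold change criterion. It stayed between -0.85 and -0.72 whichever library was left out. DESeq2 gave NTRK2 an adjusted p of 9.0e-06, and of at most 6.8e-04 with any library left out. Gene counts do not separate the full-length from the truncated receptor.

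BDNF, the ligand of NTRK2, varied between libraries far more than between groups. It had 44, 69 and 1 counts in FNI replicates 1, 2 and 3 and 19, 41 and 136 counts in the FNI+I-125 replicates. The single count of FNI replicate 3 has a 95% exact Poisson interval of 0.0253 to 5.57 counts. In CPM, BDNF stood at 2.58, 4.35 and 0.0591 against 1.24, 2.50 and 7.98. FNI replicate 3 was the lowest and FNI+I-125 replicate 3 the highest library, and the groups overlapped. BDNF had a log2 fold change of 0.75 (standard error 1.24), which was -0.32 without FNI+I-125 replicate 3 and 1.56 without FNI replicate 2. NTF3, a neurotrophin with a preference for the receptor NTRK3, was low throughout. It had 29, 35 and 52 counts in the FNI replicates and 17, 36 and 32 counts in the FNI+I-125 replicates. NTF3 overlapped between the groups, with a log2 fold change of -0.43 (standard error 0.42).

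NGFR, the neurotrophin receptor that marks Schwann cells without axon contact, again followed the library rather than the group. It stood at 436, 500 and 138 CPM in FNI replicates 1, 2 and 3 and at 111, 253 and 604 CPM in the FNI+I-125 replicates. The 2 lowest libraries were FNI+I-125 replicate 1 and FNI replicate 3, and the highest was FNI+I-125 replicate 3. NGFR had a log2 fold change of -0.15 (standard error 0.72), which ran from -0.98 without FNI+I-125 replicate 3 to 0.26 without FNI+I-125 replicate 1. NTRK3, the receptor of NTF3, was lower in every library with a seed, at 7.09, 5.10 and 14.4 CPM against 0.850, 4.20 and 2.00 CPM. Its log2 fold change was -1.91 (standard error 0.68, unadjusted p = 0.0305, adjusted p = 0.280 from edgeR).

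GDNF and ARTN showed the same order of extremes as BDNF in the FNI+I-125 group. GDNF, a survival factor for motor neurons, had 119, 183 and 7 counts in FNI replicates 1, 2 and 3 and 66, 75 and 344 counts in the FNI+I-125 replicates, which is 6.97, 11.5 and 0.414 CPM against 4.31, 4.57 and 20.2 CPM. ARTN, a factor for sensory and sympathetic neurons, stood at 3.63, 5.86 and 2.19 CPM against 1.70, 3.04 and 11.8 CPM. For both genes FNI+I-125 replicate 3 held the highest level and the other FNI+I-125 libraries lay below FNI replicates 1 and 2. GDNF had a log2 fold change of 0.62 (standard error 1.13) and ARTN one of 0.50 (standard error 0.79). Without FNI+I-125 replicate 3 these values were -0.51 and -0.72, so that the direction for both rested on this library.

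GFRA1, the co-receptor that presents GDNF to RET, was close to uniform in the FNI group and spread widely in the nerves with a seed. It stood at 163, 168 and 135 CPM in FNI replicates 1, 2 and 3, a 1.24-fold range, and at 29.7, 87.0 and 140 CPM in the FNI+I-125 replicates, a 4.69-fold range. FNI+I-125 replicate 3 lay within the FNI range and the other FNI+I-125 replicates lay below it. GFRA1 had a log2 fold change of -0.86 (standard error 0.52, and an adjusted p of 0.397 from edgeR), which ran from -1.41 to -0.45 with each library left out. RET, the kinase that GDNF and ARTN signal through, overlapped between the groups, at 19.0, 6.49 and 9.28 CPM against 7.78, 4.63 and 15.6 CPM.

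The rule of selection set CNTF, as the factor of mature Schwann cells, against genes induced after injury. The log2(CPM + 1) of CNTF minus the mean of BDNF, GDNF, ARTN, NGFR and GFRA1 was -0.44, -1.99 and 3.40 in FNI replicates 1, 2 and 3. In the FNI+I-125 replicates it was -1.21, -1.22 and -3.33. It averaged 0.33 ± 2.78 (SD, n = 3) without a seed and -1.92 ± 1.22 (SD, n = 3) with one. FNI replicate 3 alone had a positive difference, and FNI+I-125 replicate 3 had the most negative one. FNI replicate 2 lay below FNI+I-125 replicates 1 and 2, so the groups overlapped. The difference between the group means, -2.25 on this scale, was smaller than the SD of the FNI group and was -0.71 without FNI replicate 3. Since the quantity is a score over the chosen genes, it was not tested. Given as raw counts, CNTF had 248 counts for each GDNF count in FNI replicate 3, 2.49 and 0.634 in FNI replicates 1 and 2, and 0.788, 1.45 and 0.177 with a seed. This ratio depends on gene length and carries meaning only between libraries.

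**Figure D3:**
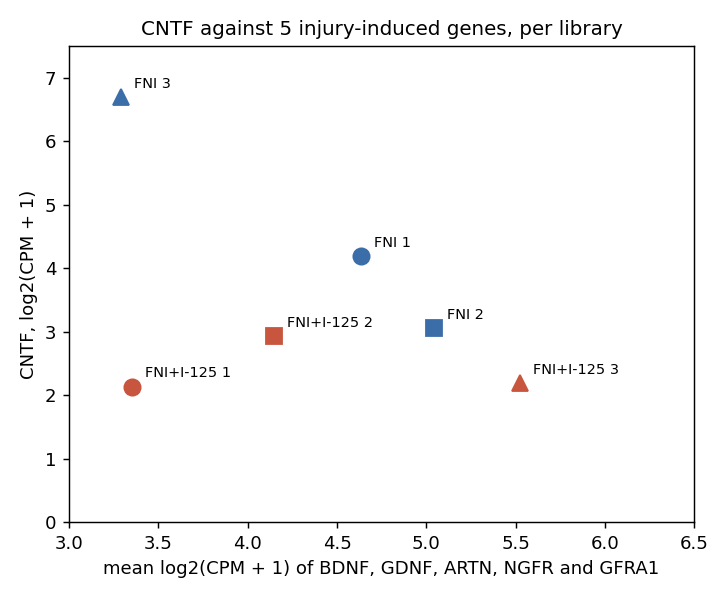
CNTF level on the vertical axis against the mean level of BDNF, GDNF, ARTN, NGFR and GFRA1 on the horizontal axis, both as log2(CPM + 1), 1 point per library (blue FNI, red FNI+I-125). FNI replicate 3 stands at the top left with the highest CNTF level, FNI+I-125 replicate 3 at the far right, and FNI+I-125 replicate 1 is low on both axes.

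The levels of the 9 genes were read beside markers of Schwann cell states. CNTF and the summed markers of myelinating Schwann cells had the same highest library, FNI replicate 3. Within the FNI+I-125 group, replicate 2 had the highest level of both. OLIG1, a gene of repair Schwann cells, stood at 4.92, 15.6 and 0 CPM against 1.11, 2.74 and 16.8 CPM, and was highest in FNI+I-125 replicate 3 and lowest in FNI replicate 3, as BDNF and GDNF were. SHH, another factor made by repair Schwann cells, instead had its highest level where CNTF had it, with 8.04 CPM in FNI replicate 3 and 0.352 to 1.89 CPM in the FNI+I-125 group. JUN, the transcription factor that drives the repair state, overlapped between the groups, at 118 to 200 CPM against 166 to 248 CPM. Of the 8 markers of myelinating Schwann cells, 8 had lower counts with a seed, as did 48.9% of all genes. At an unadjusted p under 0.05 from edgeR 4 of them were lower, as were 7.73% of all genes, and 0 passed both criteria after adjustment. Only 2, PRX and NCMAP, were lower without overlap between the groups, beside 12.3% of all genes. Of the 8 markers of repair or immature Schwann cells 4 had lower and 4 had higher counts. The part of the Schwann cell state in the levels of the 9 genes was not tested.

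SOX10, a transcription factor of the whole Schwann cell lineage, had 275, 276 and 229 CPM in FNI replicates 1, 2 and 3 and 54.4, 133 and 222 CPM in the FNI+I-125 replicates. GFRA1 kept a near constant ratio to it. For every 100 SOX10 counts there were 59.2, 60.8 and 59.2 GFRA1 counts in the FNI replicates and 54.7, 65.4 and 62.7 in the FNI+I-125 replicates, a 1.20-fold range over all 6 libraries. Among 13746 genes with a count in every library, GFRA1 had the smallest such range. ERBB3, a receptor of the Schwann cell lineage, had 1.48. The GFRA1 ratio varied more with other general Schwann cell markers. It ran from 56.7 to 86.3 per 100 ERBB3 counts and from 81.7 to 155 per 100 CDH19 counts. NGFR had 159, 181 and 60.2 counts for every 100 SOX10 counts in the FNI replicates and 205, 190 and 272 in the FNI+I-125 replicates. On this scale the FNI+I-125 libraries lay above all FNI libraries for NGFR, BDNF, ARTN and CLCF1, while the other 5 genes overlapped. SOX10 itself was lower in every nerve with a seed, and per SOX10 count 42.9% of all genes lay higher without overlap and 0.179% lower, so that 4 of 9 is near the share of genes in general. With ERBB3 or CDH19 in place of SOX10, all 9 genes overlapped between the groups, where 28.3% and 22.0% of all genes lay higher and 0.264% and 0.564% lower without overlap. NTRK2, which separated the groups in CPM, did not do so per SOX10 count, with 144, 147 and 210 against 429, 189 and 115. These ratios were formed after the levels had been seen and are given as a description.

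**Figure D4:**
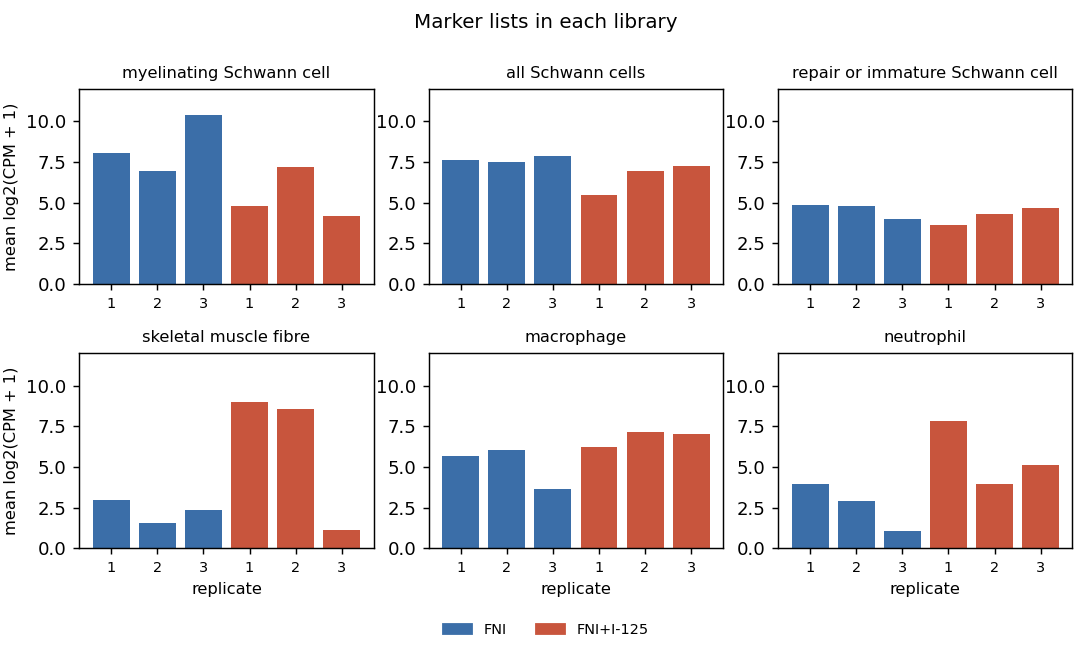
Mean log2(CPM + 1) of 6 marker lists in each library, with replicates 1 to 3 of the FNI group (blue) and of the FNI+I-125 group (red). The myelinating Schwann cell list is highest in FNI replicate 3, the muscle list is high in FNI+I-125 replicates 1 and 2, and the neutrophil list is highest in FNI+I-125 replicate 1.

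Muscle is a known source of GDNF, NTF3 and BDNF, so the levels were set beside muscle markers. ACTA1, the actin of muscle fibres, stood at 37.5, 2.39 and 18.6 CPM in FNI replicates 1, 2 and 3 and at 2236, 2200 and 2.05 CPM in the FNI+I-125 replicates. Within the FNI+I-125 group, BDNF and GDNF were highest in replicate 3, where ACTA1 was lowest, and NTF3 was highest in replicate 2, at 2.19 CPM. MYOG, a gene of regenerating muscle, had 0 CPM in FNI replicates 2 and 3 and FNI+I-125 replicate 3. Markers of satellite cells and regenerating muscle summed to 1.26 to 10.1 CPM without and 1.53 to 188 CPM with a seed. The part of muscle in the levels of the 9 genes was not tested. Macrophage markers, with 7 listed, summed to 148 to 651 CPM in the FNI group and 978 to 1522 CPM in the FNI+I-125 group, and their part in these levels was not tested.

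**Figure D5:**
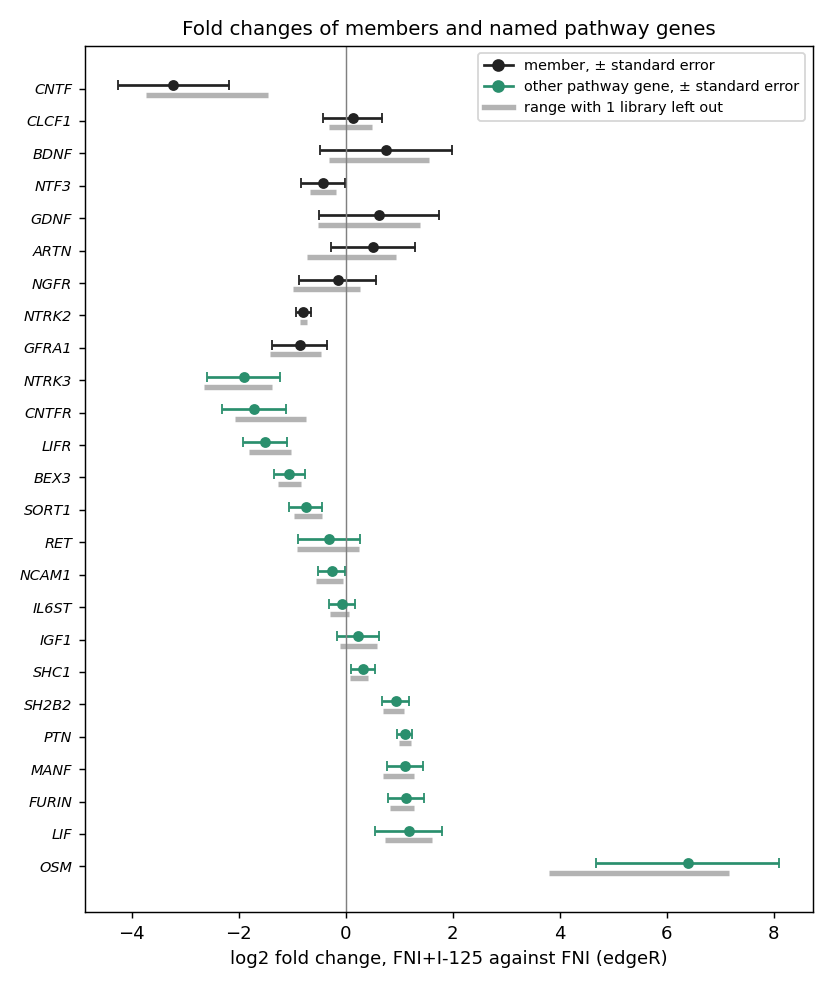
Log2 fold change of FNI+I-125 against FNI for the 9 genes (black) and for other pathway genes (green), with whiskers of 1 standard error from edgeR and grey bars for the range with 1 library left out in turn. NTRK2 has the shortest whiskers among the 9, and the grey bars of BDNF, GDNF, ARTN, NGFR and CLCF1 cross 0.

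A wider list of 47 pathway genes was read in the same way, of which 42 were listed in the files and 37 passed the filter on low counts. Of these 37, 17 lay higher and 20 lay lower with a seed, and their log2 fold changes had a median of -0.06. At an unadjusted p under 0.05, 6 were higher and 4 were lower, where 9.23% and 7.73% of all genes were, and 0 passed after adjustment with edgeR. With DESeq2 and all libraries, CNTFR and LIFR passed both criteria, with an adjusted p of 0.0486 and 0.0147. OSM, counted among the 6, met them too. It passed the filter on low counts only through the FNI+I-125 libraries, so its calls are a description and no support for a difference. CNTFR then missed a criterion without FNI replicate 3 or any 1 of the FNI+I-125 libraries, LIFR without FNI replicate 3 or FNI+I-125 replicate 1 or 2, and OSM without FNI replicate 1 or FNI+I-125 replicate 1. PTN, BEX3, FURIN, MANF and SH2B2 had DESeq2 adjusted p-values of 3.8e-07, 0.0319, 0.0423, 0.0465 and 0.0410 but lay under the fold change criterion. The 4 lower genes were CNTFR, LIFR, NTRK3 and BEX3, an adaptor of NGFR. BEX3 stood at 22.6, 26.5 and 34.6 CPM in FNI replicates 1, 2 and 3 and at 8.89, 16.7 and 14.7 CPM in the FNI+I-125 replicates (log2 fold change -1.05, standard error 0.29). Among the higher genes were OSM, PTN, MANF, FURIN and SH2B2. PTN, a heparin-binding factor that promotes axon growth, varied little within the groups, at 16.3, 19.4 and 14.8 CPM against 35.9, 35.4 and 37.3 CPM (log2 fold change 1.10, standard error 0.14, unadjusted p = 2.6e-04). FURIN, a protease that matures neurotrophin precursors, stood at 119, 122 and 64.2 CPM against 303, 171 and 190 CPM. MANF, a factor induced by stress of the endoplasmic reticulum, had a log2 fold change of 1.11 (standard error 0.33), and SH2B2, an adaptor of Trk receptors, one of 0.94 (standard error 0.25).

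The most abundant gene of each group of pathway genes overlapped between the groups in every case. SORT1, the co-receptor of NGFR for neurotrophin precursors, had a log2 fold change of -0.75 (standard error 0.31, unadjusted p = 0.0501). NCAM1, an adhesion molecule that binds GDNF, had one of -0.26 (standard error 0.26), IL6ST one of -0.07 (standard error 0.24), IGF1 one of 0.24 (standard error 0.39) and SHC1, an adaptor of Trk receptors, one of 0.32 (standard error 0.23). All 3 tested genes of the neurotrophin list and all 4 of the GDNF family list had negative log2 fold changes, with medians of -0.75 and -0.29. NTF4, PSPN, GFRA4 and CDNF were below the filter on low counts.

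Genes whose log2(CPM + 1) pattern over the 6 libraries came closest to CNTF, among 9769 genes with a mean of 10 CPM or more, were PRKCDBP, CBX6 and GPC3, with Pearson's r from 0.995 to 0.999. For NGFR they included STX10 and CDK15, for BDNF ERI3, RPL23 and RDH10, and for GDNF DUSP16, B3GNT7 and CDK18, with r of 0.982 to 0.998. Each r is over 6 libraries that fall in 2 groups, was the highest among all genes searched and is given as a description. A high r says nothing of the size of a difference. ERI3, the closest to BDNF, stayed between 47.2 and 52.5 CPM in all 6 libraries, and GPC3, which follows CNTF, stood at 57.2, 39.2 and 209 CPM in FNI replicates 1, 2 and 3 and at 27.6, 34.6 and 27.0 CPM in the FNI+I-125 replicates.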

How the data were processed

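The authors prepared stranded, poly(A)-selected RNA libraries for sequencing as paired reads. The submitters' processing notes name HISAT2 and rabbit build OryCun2.0. The authors deposited whole-number counts per gene and library, without normalization. The counting program and its strand setting are not given in the sources used here. Replicates were not pooled, and labels do not name a batch or state that libraries came from separate animals, though the methods describe 3 rabbits per group. P-values measure only the spread between these libraries.

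Analysis used R 4.3.3, edgeR 4.0.16 (TMM, filterByExpr with a minimum count of 10, glmQLFit and glmQLFTest), limma 3.58.1 and DESeq2 1.42.0. All tests are two-sided. P-values were adjusted by Benjamini-Hochberg over the genes of each fit, which were 14003 in the main edgeR fit. DESeq2, which used its own filter, gave an adjusted p to 13903 genes with all libraries. Calls needed an adjusted p under 0.05 and a |log2 fold change| of 1.5 or more. Standard errors are |log2 fold change| divided by the square root of F. For single genes, an exact permutation over samples was run on log2(CPM + 1), for which 0.1 is the smallest p. CPM used TMM-scaled library sizes. Of 2992 LOC identifiers, 542 took a RefSeq symbol (assembly mOryCun1.1), and 25 genes named as spreadsheet dates (0.188% of counts) stayed in the tests. Sequences and coordinates were not used here. Statistics were tested on simulated data.

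The 9 genes, the pathway and marker lists and the alternatives were chosen with earlier results of these data known. Named were the 9 genes, pathway genes at an unadjusted p under 0.05, the most abundant gene of each list, 7 partner genes, 7 markers and the 3 genes most like CNTF, BDNF, GDNF and NGFR. Some genes that this rule names are not reported here. ZFP91, RAD9A, ERBB3 and CDH19 were added after values had been seen, as were DESeq2 fits with a library left out.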

Additional observations from a re-analysis of the deposited data

How the results depend on the processing

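NTRK2, CNTF, NTF3 and GFRA1 kept their direction in every fit, with log2 fold changes over the edgeR and limma fits from -0.85 to -0.72, from -3.72 to -1.46, from -0.66 to -0.19 and from -1.41 to -0.45. With each library left out in turn in edgeR, the values ran from -0.32 to 1.56 for BDNF, from -0.51 to 1.39 for GDNF, from -0.72 to 0.93 for ARTN, from -0.31 to 0.49 for CLCF1 and from -0.98 to 0.26 for NGFR, so the direction of each changed when 1 library was left out. Of the 9 genes 4 were higher, 0 to 5 with each library left out (4 to 9 lower, 9 of them without FNI+I-125 replicate 3), and 2 with at least 10 counts in every library, which BDNF and GDNF did not reach, nor did OSM among the pathway genes. CNTF passed the criteria with DESeq2 at -3.24 (adjusted p = 0.0117). With a library left out, DESeq2 gave CNTF values from -3.73 to -1.46, and it no longer passed without FNI replicate 3 or FNI+I-125 replicates 1 or 3. Among the pathway genes the direction of IGF1, IL6ST and RET changed in this way: in edgeR the values ran from -0.10 to 0.59 for IGF1, from -0.29 to 0.056 for IL6ST and from -0.91 to 0.24 for RET, and in DESeq2 from -0.11, -0.28 and -0.91 to 0.57, 0.049 and 0.23.

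For all genes, DESeq2 called 289 higher and 175 lower genes, and 388 higher and 306 lower passed at an unadjusted p with edgeR. With each library left out, edgeR called 0 to 38 higher and 0 to 2 lower genes, the maxima without FNI+I-125 replicate 3, and DESeq2 called 100 to 400 and 63 to 278. A log2 fold change threshold of 1 gave 0 genes.

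Same-numbered libraries had correlations of their deviations from the group means of 0.05, -0.23 and -0.19, so no pairing by number was seen. With 3 libraries per group that differ in tissue content, these correlations cannot exclude a shared batch. With the replicate block, the log2 fold change of CNTF was -2.43 (unadjusted p = 0.0945) and that of NTRK2 was -0.79 (unadjusted p = 0.00539), so 1 of the 9 genes was lower at an unadjusted p, as with limma-voom and without FNI+I-125 replicate 1 (1 to 3 with each library left out over both tools), and 0 genes were called in all. No library correlated best with its own number. BDNF, NTF3, ARTN and GDNF had at most 344 counts in a library, which limits the precision of their fold changes.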
